A study of Homo sapiens with 12 samples.

Results

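The 53 genes described here encode the proteins that copy nuclear DNA and the enzymes that make its deoxynucleotides. They were chosen by symbol, with earlier results of these data known. All 53 were found among the 32269 Ensembl identifiers of the gene count matrix, as the rows whose identifier maps to a listed symbol. Their levels were followed in AGS and MKN1, established human lines of gastric cancer. AGS is labelled as epithelial cells of a gastric adenocarcinoma, and MKN1 as a gastric adenosquamous carcinoma. Each line was treated with cantharidin sodium, a salt of the beetle toxin cantharidin, which inhibits serine/threonine protein phosphatases, or left untreated. The 4 groups were treated AGS, untreated AGS, treated MKN1 and untreated MKN1 cells, all labelled wild type, with 3 libraries each, described by the submitters as biological replicates. Neither dose nor duration is given in the sources used here. Each line stands for a single tumour, and nothing in the labels says that the replicates were grown apart, so the p-values measure the spread between these libraries.

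A cell copies its genome in steps, each with its own proteins. In late mitosis and G1 the origin recognition complex (ORC), CDC6 and CDT1 load the ring of MCM2 to MCM7 onto origins, a step called licensing, and geminin (GMNN) blocks CDT1 once S phase has begun. CDC45 and the GINS complex then join the ring to form the active CMG helicase, DNA polymerase alpha with primase starts each strand, RFC loads the sliding clamp PCNA, and polymerases delta and epsilon extend the strands. RPA coats single-stranded DNA, FEN1, DNA2 and LIG1 trim and seal Okazaki fragments, and ribonucleotide reductase, thymidylate synthase and thymidine kinase supply the nucleotides. Many of these genes are transcribed at the passage from G1 into S phase by E2F factors, so their mRNA levels are commonly read together with the proliferation of a culture. In RNA from whole cultures, fewer cells that transcribe a gene and less of its RNA per cell cannot be told apart.

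The libraries held 28604966 to 51604215 counts, and 20280 genes passed the filter on low counts, all 53 replication genes among them. Levels below are CPM, the counts divided by the library's size after scaling with edgeR's TMM factors, and each fold change is on the log2 scale with the standard error (SE) of the fit. Replicates correlated at 0.9876 to 0.9901 in AGS and at 0.9702 to 0.9853 in MKN1, where untreated library 3 had the lowest values. The epithelial keratin KRT8 lay at 2015 to 4142 CPM in all 12 libraries, and the squamous keratin KRT5 at 390 to 650 CPM in MKN1 but at no more than 0.122 CPM in AGS. EPCAM was lower in MKN1, at 17.7 to 26.6 CPM, than in AGS, at 425 to 467 CPM. Of the blood cell markers, PTPRC stayed at or under 0.552 CPM, while LYZ lay at 1024 to 1575 CPM in all AGS libraries, treated and untreated, and at no more than 0.334 CPM in MKN1. The haemoglobin gene HBB, a red cell marker, was at 0, 0.0774 and 0 CPM in treated AGS libraries and at 18.9, 8.49 and 6.80 CPM in untreated AGS libraries, and its part in the results was not tested.

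In treated AGS cells 15 of the 53 genes fell and none rose at an adjusted p under 0.05, against a background of 20.8% of all 20280 genes called, 11.6% lower and 9.21% higher. In treated MKN1 cells 10 fell and 1 rose, against a background of 6.7% called, 3.9% lower and 2.8% higher. At an unadjusted p under 0.05 the counts were 20 lower and 1 higher in AGS, and 22 lower and 2 higher in MKN1. Of all 20280 genes, 3770 were lower and 3233 higher at that cut-off in AGS, and 2475 and 2275 in MKN1. DESeq2 called 15 lower and 1 higher, DTL, in AGS, and 14 lower and 1 higher, ORC5, in MKN1. Over all genes it called 2690 lower and 2355 higher in AGS, and 1415 and 1009 in MKN1. The median log2 fold change of the 53 genes was -0.24 in AGS, where that of all genes was -0.01, and -0.31 in MKN1, where that of all genes was 0.01. The genes that fell in both lines were 6, namely CDT1, RPA3, LIG1, FEN1, TYMS and TK1, which are 40% of those lower in AGS and 60% of those lower in MKN1. A further 9 passed the threshold in AGS but not in MKN1, and 4 in MKN1 but not in AGS, and 37 of the 53 had a negative fold change in both lines.

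**Figure D1:**
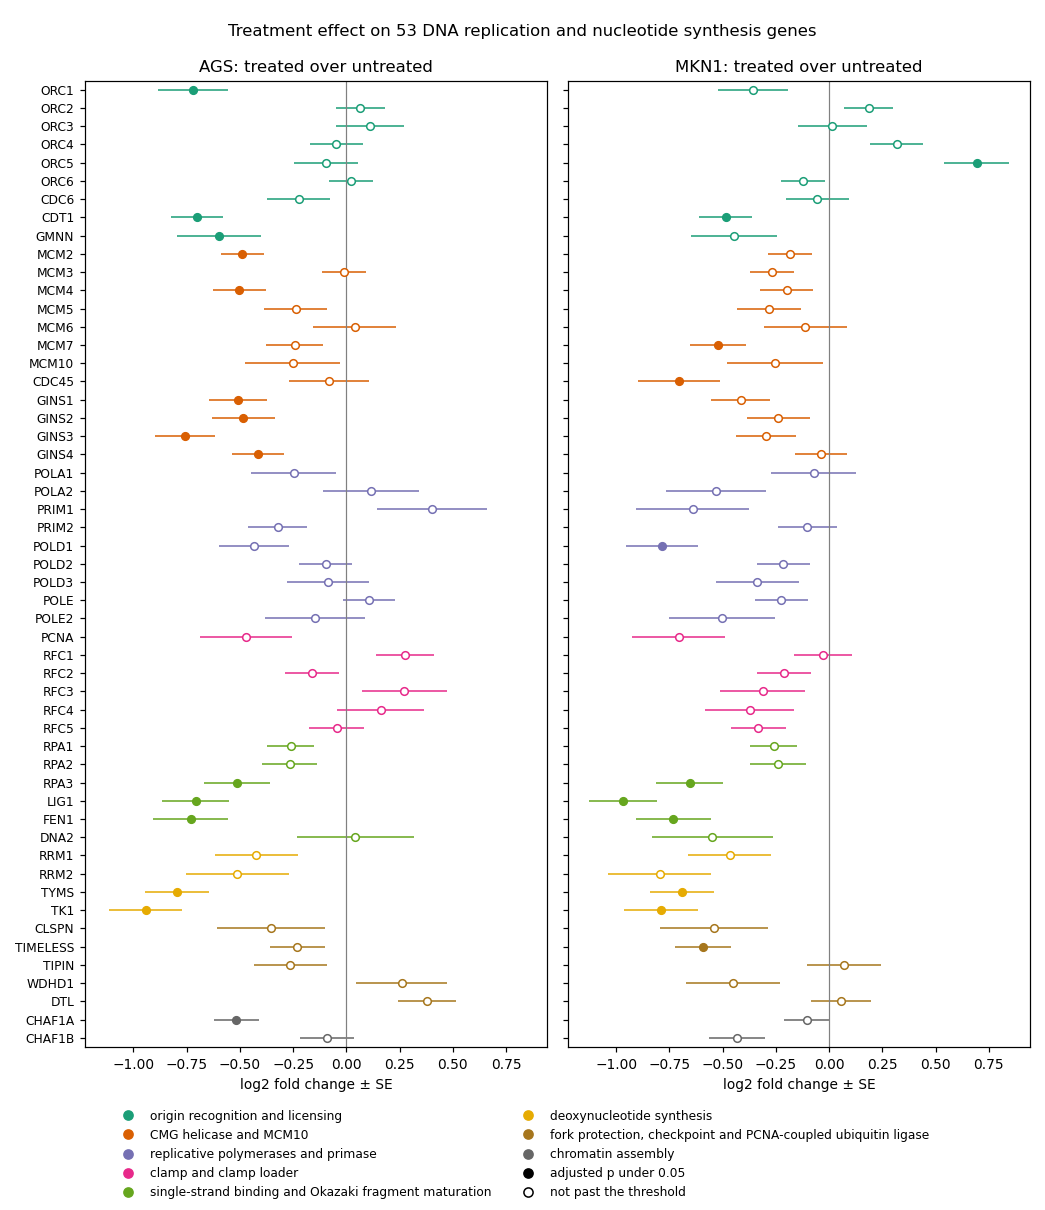
Log2 fold change of treated against untreated cells for the 53 genes, grouped by role, in AGS and in MKN1 on the same horizontal scale, with filled points for genes past the adjusted threshold and bars for the SE of the fit. Most points lie left of 0 in both lines, the median being -0.24 in AGS and -0.31 in MKN1, and ORC5 in MKN1 is the filled point on the right.

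The roles differed in how many of their members fell. In AGS these were 3 of 9 licensing genes, 6 of 12 helicase genes, 3 of 6 genes of single-strand binding and Okazaki fragment maturation, 2 of 4 nucleotide genes, 1 of 2 chromatin assembly genes, and none of 9 polymerase and primase genes, 6 clamp and clamp loader genes or 5 fork protection genes. At an unadjusted p under 0.05, edgeR put 2 polymerase genes and 1 clamp gene lower. It put 1 gene listed with fork protection higher, DTL, which belongs to a ubiquitin ligase. DESeq2 called 0, 0 and 1 in these roles in the same directions. In MKN1 the lower genes were 1 of 9 licensing, 2 of 12 helicase, 1 of 9 polymerase, 3 of 6 Okazaki, 2 of 4 nucleotide and 1 of 5 fork protection genes. No clamp or chromatin assembly gene was called in MKN1 by edgeR, while 2 clamp genes and 1 chromatin gene were lower at an unadjusted p under 0.05 and DESeq2 called 1 of each lower. The median fold changes of the nucleotide genes were -0.65 in AGS and -0.74 in MKN1, those of the Okazaki genes -0.39 and -0.60, and those of the helicase genes -0.33 and -0.26. Those of the licensing genes were -0.10 in AGS and -0.06 in MKN1, those of the polymerases -0.10 and -0.34, and those of the clamp and its loader 0.06 and -0.32. Whether one role moved more than another was not tested.

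The stretch just before the transcription start is shown for the members that the account turns on, because replication promoters are known for E2F and NF-Y letters there. The sequences are RefSeq's, in build GRCh38.p14, each covering the 150 bases before the start on the gene's own strand. Capitals mark matches, on either strand, to the E2F letters TTTCCCGC, TTTCGCGC, TTTGCCGC or TTTGGCGC, or to the NF-Y letters CCAAT. CDT1 (chr16:88803639-88803788, plus strand), LIG1 (chr19:48170345-48170494, minus strand), FEN1 (chr11:61792761-61792910, plus strand), TYMS (chr18:657503-657652, plus strand) and TK1 (chr17:78187053-78187202, minus strand) fell in both lines, and ORC5 (chr7:104208014-104208163, minus strand) rose in MKN1. For TK1, 1 of its 2 RefSeq promoters is given, the first after ordering them by the number of matches, highest first.
CDT1: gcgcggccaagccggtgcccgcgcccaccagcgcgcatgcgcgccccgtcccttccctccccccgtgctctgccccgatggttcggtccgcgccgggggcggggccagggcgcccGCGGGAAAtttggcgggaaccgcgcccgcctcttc
LIG1: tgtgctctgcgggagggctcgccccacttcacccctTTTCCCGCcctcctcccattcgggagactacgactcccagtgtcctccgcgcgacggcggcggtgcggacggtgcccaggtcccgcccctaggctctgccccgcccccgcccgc
FEN1: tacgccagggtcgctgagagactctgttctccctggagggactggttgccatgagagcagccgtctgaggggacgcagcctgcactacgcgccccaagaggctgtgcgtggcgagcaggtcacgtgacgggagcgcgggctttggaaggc
TYMS: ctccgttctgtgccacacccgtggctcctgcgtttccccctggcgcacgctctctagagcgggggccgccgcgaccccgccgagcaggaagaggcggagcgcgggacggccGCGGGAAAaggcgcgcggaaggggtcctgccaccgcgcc
TK1: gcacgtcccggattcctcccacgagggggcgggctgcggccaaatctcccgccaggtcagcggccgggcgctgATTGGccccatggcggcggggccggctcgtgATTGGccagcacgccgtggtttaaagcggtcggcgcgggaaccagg
ORC5: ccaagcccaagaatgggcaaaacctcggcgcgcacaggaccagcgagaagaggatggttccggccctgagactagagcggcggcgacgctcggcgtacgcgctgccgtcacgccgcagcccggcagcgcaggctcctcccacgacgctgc
The E2F letters began 35 bases before the start in CDT1, 114 in LIG1 and 39 in TYMS. TK1 held CCAAT on the other strand at 77 and 46 bases before the start and no E2F letters, and the windows of FEN1 and ORC5 held neither.

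RefSeq promoters, taken as 250 bases before to 50 bases after the start, were at hand for 46 of the 53 genes. E2F letters stood in 22 of these 46, or 47.8%, against 3.99% of all 27305 genes with a promoter. CCAAT stood in 29 of the 46, or 63.0%, against 39.7% of all genes, and the letters TTTGAA, an element of genes expressed in G2 and mitosis, in 1 of the 46, RRM1, or 2.17%, against 18.2%. Of the genes that fell in AGS, 12 had a promoter entry and 8 of them held E2F letters. Of those that fell in MKN1, 9 had an entry and 4 held them. The median fold change in AGS was -0.26 for the 22 genes with E2F letters and -0.13 for the 24 without, and in MKN1 it was -0.30 with and -0.35 without. The letters are a description of the sequence and not of binding.

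Of the licensing genes, CDT1 fell in both lines. CDT1, which brings the MCM ring to the origin, was at 23.8, 21.1 and 25.1 CPM in treated AGS libraries, against 35.3, 35.6 and 43.0 CPM in untreated AGS libraries. In MKN1 it was lower in all libraries, at 8.62, 8.04 and 8.36 CPM in treated cells, against 11.2, 12.2 and 11.6 CPM in untreated cells. Treated and untreated libraries were separate in both lines. Its log2 fold change was -0.70 (SE 0.12, edgeR adjusted p = 0.00257) in AGS and -0.49 (SE 0.13, edgeR adjusted p = 0.0398) in MKN1. The MKN1 call of CDT1 was lost in 10 of the 12 fits that left out 1 library, at an adjusted p of 0.0524 to 0.137, and was kept only without AGS untreated 3 and without MKN1 untreated 3.

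ORC1, the largest subunit of the origin recognition complex and the one whose level changes through the cell cycle in human cells, was at 16.0, 16.1 and 19.3 CPM in treated AGS libraries, against 26.4, 28.9 and 29.2 CPM in untreated AGS libraries. It was at 23.8, 14.5 and 21.4 CPM in treated MKN1 libraries, against 26.6, 23.9 and 26.0 CPM in untreated MKN1 libraries. In both lines all treated libraries were below all untreated ones, in MKN1 by a narrow margin. ORC1 fell in AGS by 0.72 on the log2 scale (SE 0.17, edgeR adjusted p = 0.0102), while its value in MKN1 was -0.36 (SE 0.17, edgeR adjusted p = 0.211). Geminin (GMNN), the inhibitor of CDT1, fell by 0.60 in AGS (SE 0.20, edgeR adjusted p = 0.0498), and this call was lost in 7 of the 12 fits that left out 1 library, the 6 AGS libraries or MKN1 treated 2, at an adjusted p of 0.0563 to 0.164. The other members of the origin recognition complex and CDC6 lay between -0.22 and 0.11 in AGS, and none of them passed the test.

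ORC5, another subunit of the origin recognition complex, was the only member called higher in either line by edgeR with all 12 libraries of both lines fitted together. It was at 30.5, 40.7 and 25.3 CPM in treated MKN1 libraries, against 20.6, 19.0 and 20.1 CPM in untreated MKN1 libraries. In AGS it was at 33.3, 29.9 and 31.9 CPM in treated libraries, against 36.4, 33.3 and 31.7 CPM in untreated libraries. The MKN1 groups did not overlap, with treated library 2 well above the others, and the AGS groups did. ORC5 rose in MKN1 by 0.69 (SE 0.15, edgeR adjusted p = 0.0210), and its value in AGS was -0.10 (SE 0.15, edgeR adjusted p = 0.690). The MKN1 call was lost without MKN1 treated 2 or without MKN1 untreated 2, at an adjusted p of 0.0596 to 0.0895.

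The helicase had the largest number of genes called in AGS, 6 of 12, and is also the longest list. Of the Okazaki, nucleotide and chromatin assembly genes, 3 of 6, 2 of 4 and 1 of 2 fell in AGS, the same share. All 4 GINS genes fell there, and among the MCM ring subunits MCM2 and MCM4 fell, while MCM3, MCM5, MCM6 and MCM7 lay between -0.24 and 0.04 and did not pass the test. MCM2 was at 74.4, 66.9 and 76.6 CPM in treated AGS libraries, against 100.3, 97.6 and 108 CPM in untreated AGS libraries. MKN1 cells had MCM2 at 64.6, 58.3 and 63.6 CPM in treated libraries, against 68.8, 78.1 and 65.2 CPM in untreated libraries. In neither line did the groups overlap, with a narrow gap in MKN1. The log2 fold change of MCM2 was -0.49 (SE 0.10, edgeR adjusted p = 0.00641) in AGS and -0.18 (SE 0.10, edgeR adjusted p = 0.306) in MKN1. In GENCODE release 29, 23.6% of the exon bases of MCM2 are shared with genes on the other strand, TPRA1 among them, whose value was 0.16 in AGS (edgeR adjusted p = 0.487) and -0.45 in MKN1 (edgeR adjusted p = 0.0822). TPRA1 was at 68.5 to 108 CPM in treated and 112 to 135 CPM in untreated MKN1 libraries, above MCM2 in all of them, and at 25.2 to 26.7 CPM in treated and 21.8 to 25.9 CPM in untreated AGS libraries. The part of the overlap in the values of MCM2 was not tested.

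GINS3, a subunit of the GINS complex, was at 15.9, 15.4 and 16.1 CPM in treated AGS libraries, against 25.8, 26.9 and 27.5 CPM in untreated AGS libraries. The treated and untreated libraries lay far apart relative to their spread. The MKN1 levels of GINS3 were 16.0, 18.3 and 14.9 CPM in treated libraries, against 22.9, 21.2 and 16.2 CPM in untreated libraries, which overlapped. GINS3 fell in AGS by 0.76 (SE 0.14, edgeR adjusted p = 0.00353), and its value in MKN1 was -0.30 (SE 0.14, edgeR adjusted p = 0.225).

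GINS1, another subunit, was at 79.6, 73.0 and 85.2 CPM in treated AGS libraries, against 108, 112 and 118 CPM in untreated AGS libraries. In treated MKN1 libraries it was at 31.8, 22.8 and 22.4 CPM, against 31.5, 32.9 and 38.0 CPM in untreated MKN1 libraries. The AGS groups did not overlap, and the MKN1 groups did, through treated library 1. Its fold change was -0.51 (SE 0.14, edgeR adjusted p = 0.0200) in AGS and -0.41 (SE 0.14, edgeR adjusted p = 0.0917) in MKN1. The AGS fold changes of GINS2, GINS4 and MCM4 were -0.48, -0.41 and -0.50. These calls were less stable than those of MCM2 and GINS3, which were kept in all 12 fits that left out 1 library. GINS1 was lost without AGS untreated 2, untreated 3, treated 1 or treated 2 (adjusted p 0.0511 to 0.0862), GINS2 without these or AGS treated 3 (0.0524 to 0.156), GINS4 without any 1 of the 6 AGS libraries (0.0514 to 0.121), and MCM4 without AGS treated 1 or treated 2 (0.0584 to 0.0693).

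In MKN1 the helicase genes that fell were MCM7 and CDC45. CDC45, which joins the MCM ring as an origin fires, was at 13.3, 11.6 and 7.95 CPM in treated MKN1 libraries, against 18.6, 21.0 and 13.8 CPM in untreated MKN1 libraries. In AGS it was at 26.9, 24.2 and 29.3 CPM in treated libraries, against 27.1, 27.6 and 30.4 CPM in untreated libraries. The MKN1 groups did not overlap, and the AGS groups did. Its value was -0.70 (SE 0.19, edgeR adjusted p = 0.0477) in MKN1 and -0.08 (SE 0.19, edgeR adjusted p = 0.798) in AGS. MCM7, a subunit of the ring, fell in MKN1 by 0.52 (SE 0.13, edgeR adjusted p = 0.0363), and its value in AGS was -0.24 (SE 0.13, edgeR adjusted p = 0.209). Both MKN1 calls were lost in 10 of the 12 fits that left out 1 library, at an adjusted p of 0.0506 to 0.164, and were kept only without MKN1 untreated 3 and without MKN1 treated 1. MCM10, a factor that acts with the helicase at origins, had values of -0.25 in AGS and -0.26 in MKN1.

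No polymerase or primase gene passed the test in AGS, and POLD1, the catalytic subunit of polymerase delta, fell in MKN1. POLD1 was at 26.6, 18.9 and 17.6 CPM in treated MKN1 libraries, against 33.8, 43.5 and 31.5 CPM in untreated MKN1 libraries. It was at 48.8, 44.0 and 52.5 CPM in treated AGS libraries, against 63.0, 61.2 and 72.1 CPM in untreated AGS libraries. The groups did not overlap in either line. The log2 fold change was -0.78 (SE 0.17, edgeR adjusted p = 0.0186) in MKN1 and -0.43 (SE 0.17, edgeR adjusted p = 0.0797) in AGS. The MKN1 call was lost without MKN1 untreated 2 or MKN1 treated 2, at an adjusted p of 0.0659 to 0.0758.

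POLA1, the catalytic subunit of polymerase alpha, was at 25.4, 26.0 and 29.1 CPM in treated AGS libraries, against 32.4, 33.0 and 30.1 CPM in untreated AGS libraries, which did not overlap. The MKN1 levels of POLA1 were 44.2, 40.8 and 22.9 CPM in treated libraries, against 43.4, 38.0 and 32.0 CPM in untreated libraries, which did. Its values were -0.25 (SE 0.20, edgeR adjusted p = 0.402) in AGS and -0.07 (SE 0.20, edgeR adjusted p = 0.866) in MKN1. PRIM1, the catalytic subunit of primase, had opposite signs in the lines. It was at 27.3, 27.8 and 31.4 CPM in treated AGS libraries, against 22.1, 22.2 and 21.1 CPM in untreated AGS libraries, and at 12.0, 11.3 and 4.53 CPM in treated MKN1 libraries, against 15.6, 14.7 and 13.1 CPM in untreated MKN1 libraries. All treated libraries lay above the untreated ones in AGS and below them in MKN1, yet neither the 0.40 in AGS (SE 0.26, edgeR adjusted p = 0.287) nor the -0.64 in MKN1 (SE 0.26, edgeR adjusted p = 0.165) passed the test. Without MKN1 treated 3, edgeR called PRIM1 higher in AGS (adjusted p = 0.0216). PRIM1 shares 16.2% of its exon bases with genes on its own strand and 5.42% with genes on the other. NACA is among these genes, at 267 to 484 CPM, with values of 0.13 in AGS and -0.17 in MKN1. The part of this overlap in the values of PRIM1 was not tested. The other polymerase genes lay between -0.32 and 0.12 in AGS and between -0.53 and -0.10 in MKN1.

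The clamp gene PCNA was at 277, 273 and 328 CPM in treated AGS libraries, against 379, 392 and 448 CPM in untreated AGS libraries. The MKN1 levels of PCNA were 143, 125 and 90.8 CPM in treated libraries, against 235, 225 and 125 CPM in untreated libraries. The AGS groups did not overlap, while in MKN1 untreated library 3 lay below treated library 1. Its values were -0.47 (SE 0.22, edgeR adjusted p = 0.140) in AGS and -0.71 (SE 0.22, edgeR adjusted p = 0.0707) in MKN1, and neither passed edgeR's test. DESeq2 called PCNA lower in MKN1 (adjusted p = 0.0171) but not in AGS (adjusted p = 0.114). Without MKN1 untreated 3, edgeR called it lower in MKN1 (adjusted p = 0.00323) and in AGS (adjusted p = 0.0333). The 5 RFC genes, which encode the clamp loader, lay between -0.16 and 0.28 in AGS and between -0.37 and -0.03 in MKN1. In AGS the treated libraries of RFC1 and RFC3 were all above the untreated ones, at fold changes of 0.28 and 0.27 that did not pass the test.

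Of the genes that trim and seal Okazaki fragments, LIG1 and FEN1 fell in both lines and DNA2 passed the test in neither. LIG1, the ligase that joins the fragments, was at 76.7, 73.3 and 79.7 CPM in treated AGS libraries, against 122, 119 and 134 CPM in untreated AGS libraries. MKN1 cells had LIG1 at 25.0, 16.6 and 17.6 CPM in treated libraries, against 41.1, 43.8 and 31.1 CPM in untreated libraries. Treated and untreated libraries were separate in both lines. The fold change was -0.71 (SE 0.16, edgeR adjusted p = 0.00853) in AGS and -0.97 (SE 0.16, edgeR adjusted p = 0.00620) in MKN1. LIG1 was the only member called in MKN1 in all 12 fits that left out 1 library, at an adjusted p of 0.000935 to 0.0294.

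FEN1, the nuclease that removes the flap ahead of ligation, was at 47.7, 39.1 and 48.9 CPM in treated AGS libraries, against 74.0, 66.0 and 85.2 CPM in untreated AGS libraries. In treated MKN1 libraries it was at 64.2, 55.3 and 51.2 CPM, against 104, 112 and 67.8 CPM in untreated MKN1 libraries. In neither line did the groups overlap, though untreated MKN1 library 3 lay close to the treated ones. FEN1 fell by 0.73 in each line (SE 0.18 in both, edgeR adjusted p = 0.0126 in AGS and 0.0300 in MKN1). The AGS call was lost without AGS untreated 3 or treated 2 (adjusted p 0.0597 to 0.0607), and the MKN1 call without MKN1 untreated 1, untreated 2, treated 2 or treated 3 (0.0703 to 0.115).

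RPA3, the smallest subunit of the single-strand binding protein RPA, was at 19.2, 18.4 and 23.0 CPM in treated AGS libraries, against 30.1, 27.3 and 29.1 CPM in untreated AGS libraries. MKN1 cells had RPA3 at 25.1, 17.2 and 22.2 CPM in treated libraries, against 33.1, 38.9 and 29.7 CPM in untreated libraries. The groups did not overlap in either line. Its fold change was -0.51 (SE 0.16, edgeR adjusted p = 0.0344) in AGS and -0.66 (SE 0.16, edgeR adjusted p = 0.0281) in MKN1. The AGS call was lost without any 1 AGS library other than treated 3 (adjusted p 0.0613 to 0.126), and the MKN1 call without MKN1 untreated 1, untreated 2 or treated 2 (0.0577 to 0.121). The larger subunits RPA1 and RPA2 were each between -0.27 and -0.24 in both lines and did not pass the test. DNA2, a nuclease and helicase that handles long flaps, was at 0.04 in AGS and -0.55 in MKN1, with an SE of 0.27 and 0.28.

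Of the 4 nucleotide genes, the thymidine nucleotide enzymes TYMS and TK1 fell in both lines, and the ribonucleotide reductase subunits did not pass edgeR's test. TK1, thymidine kinase of the salvage pathway, was at 79.5, 73.6 and 80.6 CPM in treated AGS libraries, against 139, 131 and 179 CPM in untreated AGS libraries. The MKN1 levels of TK1 were 29.1, 18.8 and 24.7 CPM in treated libraries, against 41.3, 49.0 and 35.2 CPM in untreated libraries. Treated and untreated libraries were separate in both lines. TK1 had the largest fall of the 53 genes in AGS, at -0.94 (SE 0.17, edgeR adjusted p = 0.00301), and was at -0.79 in MKN1 (SE 0.17, edgeR adjusted p = 0.0202). The MKN1 call was lost without MKN1 untreated 2 or treated 2 (adjusted p 0.0647 to 0.0876).

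TYMS, thymidylate synthase, was at 89.7, 96.2 and 120.1 CPM in treated AGS libraries, against 159.9, 168 and 203 CPM in untreated AGS libraries. It was at 60.2, 46.1 and 50.1 CPM in treated MKN1 libraries, against 88.1, 91.4 and 73.0 CPM in untreated MKN1 libraries. In neither line did the groups overlap. Its fold change was -0.79 in AGS (SE 0.15, edgeR adjusted p = 0.00378) and -0.69 in MKN1 (SE 0.15, edgeR adjusted p = 0.0200), a call lost in MKN1 without MKN1 untreated 1, untreated 2 or treated 2 (adjusted p 0.0541 to 0.0761). TYMS shares 46.6% of its exon bases with ENOSF1 and TYMSOS on the other strand, and since the library kit does not mark strand, the reads of these genes cannot be told apart there. ENOSF1 itself rose in AGS by 0.74 (SE 0.13, edgeR adjusted p = 0.00301), at 239, 197 and 226 CPM in treated libraries, against 150, 134 and 113 CPM in untreated libraries, and was at -0.25 in MKN1 (edgeR adjusted p = 0.288).

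RRM2, the S-phase subunit of ribonucleotide reductase, was at 216, 198 and 233 CPM in treated AGS libraries, against 299, 298 and 325 CPM in untreated AGS libraries. MKN1 cells had RRM2 at 192, 120.5 and 131 CPM in treated libraries, against 319, 302 and 148 CPM in untreated libraries. The AGS groups did not overlap, and in MKN1 untreated library 3 lay below treated library 1. The values were -0.51 (SE 0.24, edgeR adjusted p = 0.152) in AGS and -0.79 (SE 0.24, edgeR adjusted p = 0.0680) in MKN1. In MKN1 DESeq2 called RRM2 lower (adjusted p = 0.0140), and edgeR did so without MKN1 untreated 3 or without MKN1 treated 1 (adjusted p 0.00174 and 0.0342), where RRM1 was called lower as well. Without MKN1 untreated 3, RRM2 was also called lower in AGS (edgeR adjusted p = 0.0247). RRM1, the large subunit, was at -0.42 in AGS and -0.47 in MKN1. RRM2 shares 20.2% of its exon bases with a transcript on the same strand.

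Among the fork protection genes TIMELESS, a partner of TIPIN in the complex that holds the helicase and polymerases together, fell in MKN1. It was at 46.1, 33.7 and 33.3 CPM in treated MKN1 libraries, against 54.8, 59.9 and 55.9 CPM in untreated MKN1 libraries. In AGS it was at 58.2, 56.3 and 68.6 CPM in treated libraries, against 68.6, 74.1 and 72.0 CPM in untreated libraries. All treated libraries were below all untreated ones in MKN1, and the groups all but touched in AGS. The fold change was -0.59 in MKN1 (SE 0.13, edgeR adjusted p = 0.0217) and -0.23 in AGS (SE 0.13, edgeR adjusted p = 0.230). The MKN1 call was lost without MKN1 untreated 2, treated 2 or treated 3 (adjusted p 0.0501 to 0.0804). DTL, the substrate receptor of the ubiquitin ligase that destroys CDT1 on PCNA-bound chromatin, and WDHD1, which links polymerase alpha to the helicase, had all treated AGS libraries above the untreated ones, at 0.38 (edgeR adjusted p = 0.0692) and 0.26 (edgeR adjusted p = 0.411).

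CHAF1A, the large subunit of the chaperone that sets histones on new DNA, fell in AGS. It was at 44.4, 37.5 and 43.8 CPM in treated AGS libraries, against 59.0, 60.0 and 60.9 CPM in untreated AGS libraries. The MKN1 levels of CHAF1A were 27.8, 25.2 and 23.6 CPM in treated libraries, against 27.3, 28.8 and 26.2 CPM in untreated libraries. The AGS groups did not overlap and the MKN1 groups did. Its fold change was -0.52 in AGS (SE 0.11, edgeR adjusted p = 0.00560) and -0.10 in MKN1 (SE 0.11, edgeR adjusted p = 0.597). Its partner CHAF1B was at -0.09 in AGS and -0.43 in MKN1 (edgeR adjusted p = 0.0673 in MKN1).

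**Figure D2:**
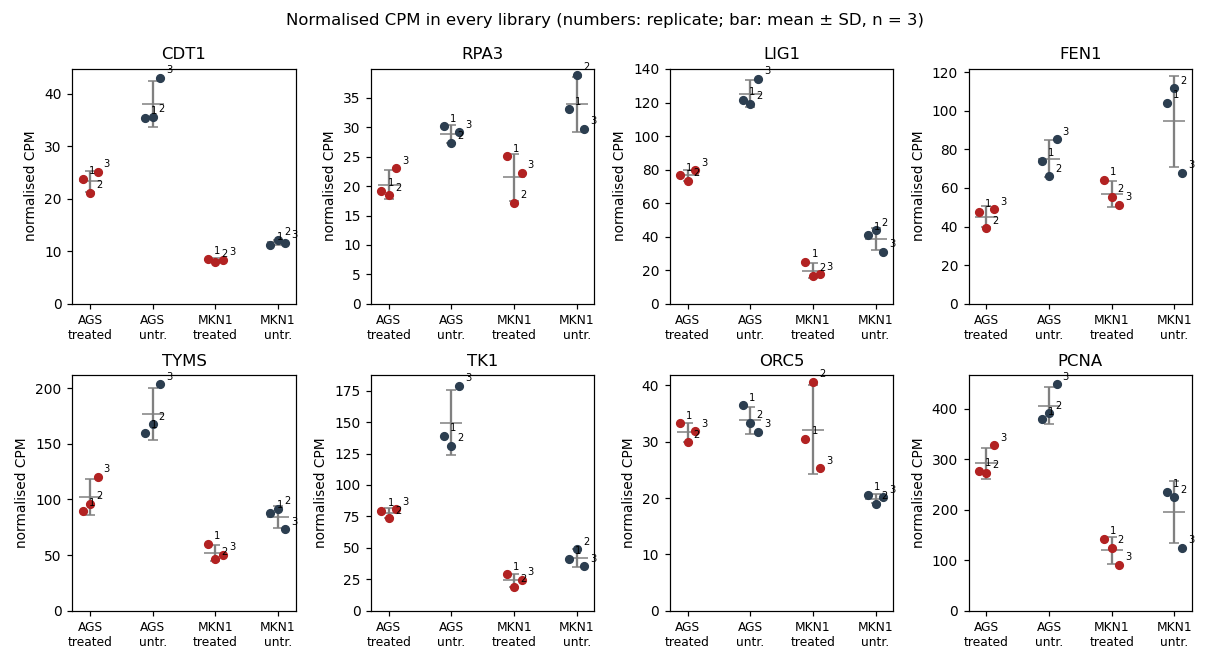
Normalised CPM of 8 replication genes in each library, by group, with treated cells left of untreated cells in each line and bars for the mean ± SD of the 3 libraries. CDT1, LIG1 and TK1 lie lower in all treated libraries than in all untreated libraries of both lines, and ORC5 lies higher in treated than in untreated MKN1 libraries, at 25.3 to 40.7 CPM against 19.0 to 20.6 CPM.

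Seen library by library, the 53 genes held 0.334 ± 0.0280% of all counts in treated AGS cells and 0.405 ± 0.0130% in untreated AGS cells (SD, n = 3 each). They held 0.237 ± 0.0332% in treated MKN1 cells and 0.287 ± 0.0280% in untreated MKN1 cells (SD, n = 3 each). The AGS libraries did not overlap in this share, and the MKN1 libraries did. In AGS 32 genes had all treated libraries below all untreated ones and 6 had them above, where 26.8% and 25.6% of all genes did so. In MKN1 the counts were 19 below and 1 above, where 11.4% and 9.95% of all genes did so.

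The median of the 53 genes in a library, on the log2 scale against the untreated mean of its line, was -0.26, -0.30 and -0.14 in treated AGS libraries and -0.04, -0.02 and 0.04 in untreated AGS libraries. In MKN1 it was -0.10, -0.32 and -0.53 in treated libraries and 0.08, 0.07 and -0.18 in untreated libraries, so that untreated library 3 lay below treated library 1. The same measure over 14 mitotic genes was -0.30, -0.35 and -0.15 in treated AGS libraries and 0.07, -0.10 and 0.02 in untreated AGS libraries. Over those genes it was -0.24, -0.77 and -0.95 in treated MKN1 libraries and 0.14, 0.17 and -0.31 in untreated MKN1 libraries. Untreated MKN1 library 3 was thus the lowest of its group in both lists, and its part in the MKN1 results was not tested. Without it, 16 replication genes fell in MKN1, and without MKN1 untreated 2 or without MKN1 treated 2 only LIG1 did. The count was 4 without MKN1 untreated 1 and 5 without MKN1 treated 3. Over all genes, in either direction, 3160 were called without MKN1 untreated 3, 336 without MKN1 untreated 2 and 624 without MKN1 treated 2. This total was 756 without MKN1 untreated 1 and 1295 without MKN1 treated 3, against 1358 with all libraries.

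In AGS the count of lower genes ranged from 8 to 18 over the fits that left out 1 library. It was 8 without AGS treated 2 and 9 without AGS treated 1 or without AGS untreated 3. In either direction over all genes, 2162 were called without AGS treated 2, 2483 without AGS treated 1 and 2051 without AGS untreated 3. The fit with 18 lower genes, without MKN1 untreated 3, called 5533, against 4214 with all libraries. CDT1, ORC1, MCM2, GINS3, LIG1, TYMS, TK1 and CHAF1A were called lower in all 12 fits that left out 1 library. When each line was fitted without the other, 29 replication genes fell and 5 rose in AGS, the 5 being PRIM1, RFC1, RFC3, WDHD1 and DTL. That fit called 8368 of 17345 genes, 25.0% lower and 23.3% higher, so calls were more frequent over all genes as well. In MKN1 alone, where 34 of 18484 genes were called, no replication gene was called by edgeR's quasi-likelihood test, with 13 lower and 1 higher at an unadjusted p under 0.05 and LIG1 at the smallest adjusted p, 0.0872. In the fit of both lines the spread between libraries is estimated over all 4 groups together.

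**Figure D3:**
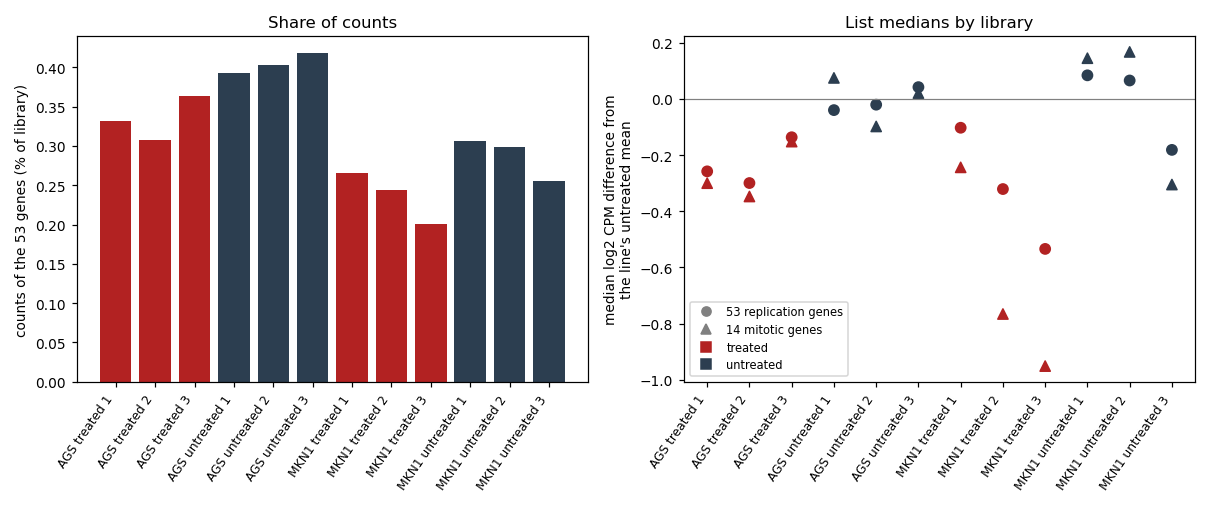
Share of all counts held by the 53 genes in each library, in percent, and the median of the 53 genes and of 14 mitotic genes on the log2 scale against the untreated mean of the line, with treated cells left of untreated cells. The AGS shares do not overlap, at 0.334% on average in treated and 0.405% in untreated cells, and untreated MKN1 library 3 lies at -0.18 in the median of the 53 genes.

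The base composition of the genes went together with the fold changes in AGS and, over a smaller range for all genes, in MKN1. With all genes divided by GC content into 5 bins of equal size, the median AGS fold change was 0.18 in the lowest bin and -0.29 in the highest. The replication genes had medians of 0.05 (12 genes), -0.25 (15), -0.25 (12), -0.49 (9) and -0.43 (5) in the same bins, low to high. In MKN1 the median of all genes was 0.06 in the lowest bin and -0.09 in the highest. The replication genes had MKN1 medians of -0.07, -0.34, -0.31, -0.24 and -0.49, low to high. The part of base composition in the result was not tested. With the trends over GC content and gene length removed, 20 replication genes fell in AGS and 11 in MKN1. Over all genes, in either direction, that fit called 4303 in AGS and 1836 in MKN1, against 4214 and 1358 with the trends kept.

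The effects in the 2 lines were also compared directly, as the MKN1 fold change minus the AGS fold change. At an adjusted p under 0.05, 1 of the 53 genes differed in the positive direction and none in the negative, against a background of 8.38% and 7.3% of all genes. At an unadjusted p under 0.05, 4 were positive and 3 negative, where 3343 and 2969 of all 20280 genes were so. DESeq2 called 2 positive, ORC5 and CHAF1A, and 1 negative, PRIM1, where it called 2039 and 2013 of all genes. The gene past edgeR's adjusted threshold was ORC5, with a difference of 0.79 (SE 0.21, edgeR adjusted p = 0.0259), made of 0.69 in MKN1 and -0.10 in AGS. This call was lost without AGS untreated 1, AGS untreated 2, AGS treated 2, AGS treated 3 or MKN1 untreated 2, at an adjusted p of 0.0518 to 0.0699.

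PRIM1 had the largest difference in size, -1.04 (SE 0.37, edgeR adjusted p = 0.0729), and WDHD1 was at -0.71 (SE 0.31, edgeR adjusted p = 0.134). Those of CHAF1A and CDC45 were 0.41 (SE 0.15, edgeR adjusted p = 0.0797) and -0.62 (SE 0.27, edgeR adjusted p = 0.134). With all libraries none of these passed edgeR's threshold, although CHAF1A was called in AGS but not in MKN1 and CDC45 in MKN1 but not in AGS. The difference of PRIM1 was called without MKN1 treated 1 or without MKN1 treated 3 (edgeR adjusted p = 0.0352 and 0.0176). That of CDC45 was called without MKN1 untreated 3 (edgeR adjusted p = 0.0379). The differences of the 6 genes that fell in both lines lay between -0.26 for LIG1 and 0.22 for CDT1, with SEs of 0.17 to 0.25. The median difference over the 53 genes was -0.09.

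Before treatment, replication genes were mostly lower in MKN1 than in AGS. Untreated MKN1 cells had 31 of the 53 genes lower and 3 higher than untreated AGS cells, against a background of 66.3% of all genes called, 31.4% lower and 34.9% higher, and a median log2 difference of -0.49, where that of all genes was 0.04. In 36 genes all untreated MKN1 libraries were below all untreated AGS ones, and in 4 they were above, where 34.6% and 36.8% of all genes were so. The untreated libraries are the same ones that the treatment comparisons use. DESeq2 put 28 lower and 5 higher, where it put 6016 of all 20280 genes lower and 7454 higher.

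The untreated lines differed most clearly in GINS1, LIG1, TK1, CDT1 and CHAF1A, whose values per library are given above. GINS1 averaged 34.1 ± 3.38 CPM in MKN1 and 113 ± 4.92 CPM in AGS (SD, n = 3 each), at -1.72 (SE 0.14, edgeR adjusted p = 1.8e-07). TK1 averaged 41.8 ± 6.91 CPM in MKN1 and 150 ± 25.8 CPM in AGS (SD, n = 3 each), at -1.84 (SE 0.17, edgeR adjusted p = 7.79e-07). The libraries of the lines did not overlap in either gene. The differences of CDT1, LIG1 and CHAF1A were -1.70, -1.69 and -1.13. The genes higher in MKN1 were POLD2, a subunit of polymerase delta, at 0.62, RFC2, of the clamp loader, at 0.34, and RPA2, the middle subunit of RPA, at 0.70. The RFC2 call was lost without AGS untreated 1, AGS untreated 2, MKN1 untreated 2 or MKN1 untreated 3, at an edgeR adjusted p of 0.0585 to 0.108.

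Levels of different genes were set side by side per length, as TPM, the share of transcripts after division by the exon lengths of GENCODE release 29. PCNA had the highest mean of the 53 genes in both lines, at 428.9 ± 119 TPM in untreated MKN1 cells and 825 ± 66.0 TPM in untreated AGS cells (SD, n = 3 each). In untreated MKN1 cells RRM2 followed at 155 ± 51.9, RPA2 at 153 ± 39.7 and MCM7 at 138.5 ± 16.9 TPM, which do not differ beyond their spread. In untreated AGS cells TK1 at 240 ± 37.2 and TYMS at 214 ± 25.5 TPM overlapped within their spread, and RRM2 at 172.5 ± 6.52 and RRM1 at 152 ± 4.00 TPM came next. The lowest means were 5.79 ± 0.528 TPM for POLE2 in untreated MKN1 cells and 10.5 ± 0.429 TPM for GINS4 in untreated AGS cells. The 6 MCM ring subunits stand in the protein ring in equal number. Their TPM in untreated AGS cells were unequal, at 62.1, 108, 62.4, 25.4, 68.6 and 113 for MCM2 to MCM7 in order. The lengths used as divisor join all annotated exons of a gene, and were 4902, 3650, 6973, 7338, 4118 and 4386 bases in the same order. The part of these lengths in the unequal TPM was not tested.

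**Figure D4:**
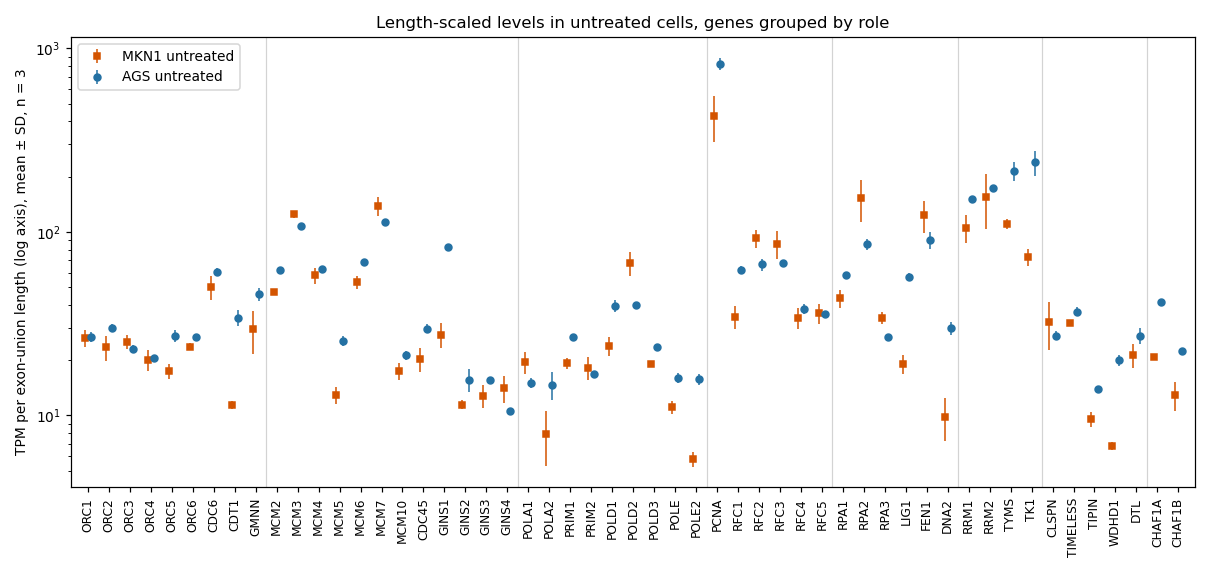
Mean level of the 53 genes in untreated cells in TPM on a log axis, grouped by role, with MKN1 and AGS as separate points and bars for the SD of 3 libraries. PCNA stands above all others in both lines, at 428.9 TPM in MKN1 and 825 TPM in AGS, and TK1, LIG1, GINS1 and CDT1 are among the genes lower in MKN1.

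Other genes of the same pathways, outside the 53, were counted in the same way. Of 28 further replication factors, 4 fell in AGS and 6 in MKN1 and none rose, where 11.6% of all genes were called lower in AGS and 3.9% in MKN1, so that the AGS count is near the background. They had medians of -0.16 in AGS and -0.22 in MKN1. At an unadjusted p under 0.05 edgeR put 0 of them higher in AGS and 2 in MKN1. RNASEH2A, a subunit of the nuclease that removes ribonucleotides from DNA, and the helicase RECQL4 fell in both lines, at -0.46 and -0.63 in AGS and at -0.68 and -0.63 in MKN1. POLE4, a small subunit of polymerase epsilon, and UHRF1, which brings DNMT1 to newly copied DNA, fell in AGS at -0.78 and -0.50. The clamp loader variant CHTF18, the methyltransferase DNMT1, the histone chaperone ASF1B and the initiation factor TICRR fell in MKN1 at -0.87, -0.53, -0.60 and -0.59.

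Of 30 further nucleotide synthesis enzymes, 4 fell and 1 rose in AGS, and 1 fell in MKN1, with medians of 0.02 in AGS and -0.03 in MKN1. Set against the same backgrounds, the counts of lower genes are near the share of all genes in both lines. In AGS those that fell were DCTPP1, a deoxynucleotide pyrophosphatase, at -0.79, the nucleoside diphosphate kinase NME1 at -0.51, UMPS of pyrimidine synthesis at -0.47 and IMPDH1 of guanine nucleotide synthesis at -0.48, and GART of purine synthesis rose by 0.57. In MKN1 it was DTYMK, thymidylate kinase, at -0.56. Of the 14 mitotic genes 5 fell in each line and none rose, with medians of -0.27 in AGS and -0.66 in MKN1. No mitotic gene was higher at an unadjusted p under 0.05 by edgeR in either line.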

How the data were processed

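RNA-seq libraries of treated and untreated AGS and MKN1 cells, 3 per group, were grouped by the labels. Per the labels' protocols, RNA came from TRIzol extraction and libraries from the NEBNext Ultra RNA kit, which does not mark strand. HISAT2 2.0.4 and the build hg38/GRCh38 are given per the submitters' processing notes. The sources used here do not state how reads were counted, with which annotation or which strand setting. The authors deposited raw counts per gene, not normalized.

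Of 32269 identifiers, 32069 matched a gene symbol. The 200 others held 0.0532% to 0.355% of a library's counts. In a library 3 counts stood for 0.0581 to 0.105 CPM, a limit of counting error only. No pair of replicates agreed within sampling noise. All counts were fitted together with edgeR 4.0.16 (R 4.3.3): filterByExpr, TMM factors and quasi-likelihood F tests, with Benjamini-Hochberg adjustment over 20280 genes, a threshold of 0.05, 8 residual degrees of freedom and a common coefficient of variation of 19.7% between replicates. The steps were tested on simulated counts. Alternatives were DESeq2 1.42.0 with its size factors, other filters on low counts, a trend over GC content and length, a replicate block, each line fitted alone, and each library left out. TPM used exon-union lengths of GENCODE release 29, which also gave gene overlaps.

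The 53 genes, the further lists and the roles were chosen with earlier results of these data known. Values per library are given for the 8 genes with the smallest adjusted p in each treatment comparison, the 5 smallest p for the difference and 5 smallest adjusted p between untreated lines, and for ORC1, CDT1, MCM2, CDC45, POLA1, PCNA, LIG1, RRM2 and TK1. Other genes called are given by fold change.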

Additional observations from a re-analysis of the deposited data

Results flagged for a closer look

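ORC5, a subunit of the origin recognition complex, drew attention because the treatment effects in MKN1 and AGS differed in a direct test. The difference, MKN1 minus AGS, was 0.788 on the log2 scale (SE 0.21, edgeR adjusted p = 0.0259). Leaving out 1 library gave adjusted p-values of 0.00656 to 0.0699.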

How the results depend on the processing

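Fits that left out 1 library gave, in AGS, 2051 to 5533 genes called (4214 with all libraries), 8 to 18 replication genes lower and 0 to 3 higher. In MKN1 they gave 336 to 3160 genes (1358 with all), 1 to 16 lower and 0 to 1 higher. For the difference they gave 2098 to 4643 genes (3180 with all), 0 to 3 negative and 0 to 2 positive, and a median of -0.21 to 0.02, positive at 0.0205 without MKN1 treated 3. Each line fitted alone gave 8368 genes, 29 lower and 5 higher in AGS, and 34 genes, 0 lower and 0 higher in MKN1. DESeq2 gave 2424 genes in MKN1, 1 replication gene higher in AGS, 1 negative and 2 positive for the difference, and 5 higher in untreated MKN1. Without a filter on low counts 809 genes were called in MKN1. With GC and length trends removed, 2 were higher in MKN1, 1 was negative and 2 positive for the difference, and 6 were higher in untreated MKN1. A replicate block gave 3 negative for the difference, and with the GC trend 2 negative, 2 positive and 6 higher in untreated MKN1. The block gave 16 lower in AGS and 11 in MKN1. Libraries of the same number correlated at -0.0441 to 0.1762, and those of different number at -0.1806 to 0.116. With 3 libraries per group these values do not settle whether the numbers pair the libraries. The cause of these shifts was not tested. The SEs of the treatment effects were 0.10 to 0.28, from a spread estimated over all 4 groups. Changes of about that size are not detectable, and larger ones can be missed. RRM2 in MKN1, at -0.79 (SE 0.24, edgeR adjusted p = 0.0680), did not pass the test.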
